A study of Mus musculus with 12 samples.

Results

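Of 35976 gene symbols in the count table of a mouse retina study, 10 were taken here by symbol as genes of the NRF2 antioxidant response. They were Nfe2l2, which encodes NRF2 itself, and 9 genes known as its targets, Hmox1, Nqo1, Gclc, Gclm, Srxn1, Txnrd1, Slc7a11, Prdx1 and Gpx1. All 10 symbols were present in the table and all 10 held reads in every library, so all entered every test. Retinal RNA had been sequenced from the 3′ end of transcripts in 12 libraries, 3 in each of 4 groups.

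The groups are called here as their labels name them. WT normoxia and WT OIR were C57BL/6 pups, kept in room air or put through oxygen-induced retinopathy (OIR), and Casp1 KO normoxia and Casp1 KO OIR were mice labelled as caspase-1 knockouts under the same pair of conditions. In the OIR model pups are kept in high oxygen, which makes retinal capillaries regress, and are then returned to room air, in which the poorly perfused retina becomes relatively hypoxic. The study's methods give 75% oxygen from postnatal day 7 to 12 and collection of the C57BL/6 retinas at day 15, with controls in 21% oxygen. The labels put every OIR retina 3 days after the return to room air, and the age and oxygen level of the pups labelled Casp1 KO are not stated. The sources also do not say which exons the knockout lacks, whether its mice were littermates of the WT mice, or how many animals each library holds, so p-values measure the spread between libraries, which may be partly technical.

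NRF2 is a transcription factor that the adaptor KEAP1 normally hands to a ubiquitin ligase for destruction. When oxidants or electrophiles modify cysteines of KEAP1, NRF2 escapes, pairs with a small MAF protein and binds antioxidant response elements near genes for glutathione synthesis, thioredoxin-based reduction, quinone detoxification and heme breakdown, while BACH1 competes for the same elements and represses Hmox1 in particular. NRF2 activity is therefore set mainly by the stability of the protein, and in the retina, with its rich supply of oxygen and polyunsaturated lipid in photoreceptors, the response is known as a defence of photoreceptors, glia and vessels.

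The element can be read in the promoters of several of the 10 genes, and 3 windows are shown because their owners represent the sulfiredoxin, peroxiredoxin and glutathione branches whose levels are given below. Sequences are from RefSeq on GRCm38.p6, reach at most 250 bases upstream of the annotated start and stop where the first annotated exon begins. They are written 5′ to 3′ on the plus strand, which is the strand of all 3 genes, and capitals mark 1 match in each, on either strand: TGAGTCAGC or TGACTCAGC for Srxn1 and Prdx1, and TGACNNNGC for Gclm.
Srxn1, chr2:152105274-152105515: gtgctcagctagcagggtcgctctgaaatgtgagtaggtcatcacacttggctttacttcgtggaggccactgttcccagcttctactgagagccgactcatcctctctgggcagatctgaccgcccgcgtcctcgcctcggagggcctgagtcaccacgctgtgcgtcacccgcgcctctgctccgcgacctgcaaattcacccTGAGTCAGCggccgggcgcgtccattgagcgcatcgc
Prdx1, chr4:116685349-116685543: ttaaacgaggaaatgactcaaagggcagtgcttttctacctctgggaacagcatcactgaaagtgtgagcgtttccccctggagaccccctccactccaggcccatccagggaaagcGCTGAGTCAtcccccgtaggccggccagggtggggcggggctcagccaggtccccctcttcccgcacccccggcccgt
Gclm, chr3:122245307-122245556: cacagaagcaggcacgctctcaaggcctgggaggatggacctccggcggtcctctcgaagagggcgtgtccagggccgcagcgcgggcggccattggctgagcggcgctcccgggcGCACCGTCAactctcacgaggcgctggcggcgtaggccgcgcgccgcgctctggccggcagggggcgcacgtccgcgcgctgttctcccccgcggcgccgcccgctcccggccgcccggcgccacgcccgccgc

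The match in Srxn1, TGAGTCAGC, lies 45 to 37 bases before the start on the strand of the gene, and does not hold TGACNNNGC. Its window has 2 more matches to the looser TGANNNNGC, not capitalized, at 158 to 150 and 57 to 49 bases before the start on the opposite strand. The match in Prdx1, TGACTCAGC on the opposite strand, lies 133 to 125 bases before the start. The match in Gclm, TGACGGTGC on the opposite strand, lies 134 to 126 bases before it. Of the 10 genes, 8 had promoter windows in the table, 10 windows in all. The letters TGACNNNGC, searched on both strands, were found for 4 of the 8 genes (Nfe2l2, Gclm, Txnrd1 and Prdx1), against 10.2% of 32851 windows of the same length. TGACTCAGC or TGAGTCAGC, which also fit the site of AP-1, was found for Srxn1 and Prdx1, against 0.706% of the windows. The looser letters TGANNNNGC, which contain the stricter form, were found for 6 of the 8 genes and in 35.2% of the windows. The member shares are by gene, with 3 windows for Txnrd1, and the background shares are by window, so the 2 are not alike. The genes were also taken as known targets. A match is a run of letters and not a measured binding site, and known elements of these genes can lie outside such short windows.

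The library totals ran from 3391203 to 5657873 reads counted to genes in 11 libraries, and WT normoxia replicate 2 held 22815830. That deep library held reads for 17975 genes, within the range of 17111 to 18937 in the other libraries. Of the 35976 symbols, 24484 had at least 1 read. WT OIR replicate 3 stood apart within its group, where chi-square divided by its degrees of freedom was 14 and 13.2 against its fellows and 3.48 to 9.34 between all other pairs of one group. Levels are given as CPM, read counts scaled to a common library size, normalized for composition between libraries by edgeR's TMM method. A count of 0 allows up to 0.134 CPM in the deepest library and up to 0.871 CPM in the shallowest, counting error only, since no molecular identifiers are described. Rods, the main cells of the retina, were present in all libraries, with a summed 40833 to 49659 CPM for 8 rod genes.

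Casp1 itself went against the labels. The 3 libraries labelled WT normoxia held 2, 0 and 1 Casp1 reads and those labelled WT OIR 0, 1 and 3, while those labelled Casp1 KO normoxia held 45, 14 and 10 and those labelled Casp1 KO OIR 22, 19 and 16. All 6 libraries labelled Casp1 KO were above all 6 labelled WT. Reads come from the 3′ end and the deleted part of the gene is not given, so these reads cannot show whether the deletion is present, and every difference between genotypes below is one between libraries as labelled.

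**Figure D1:**
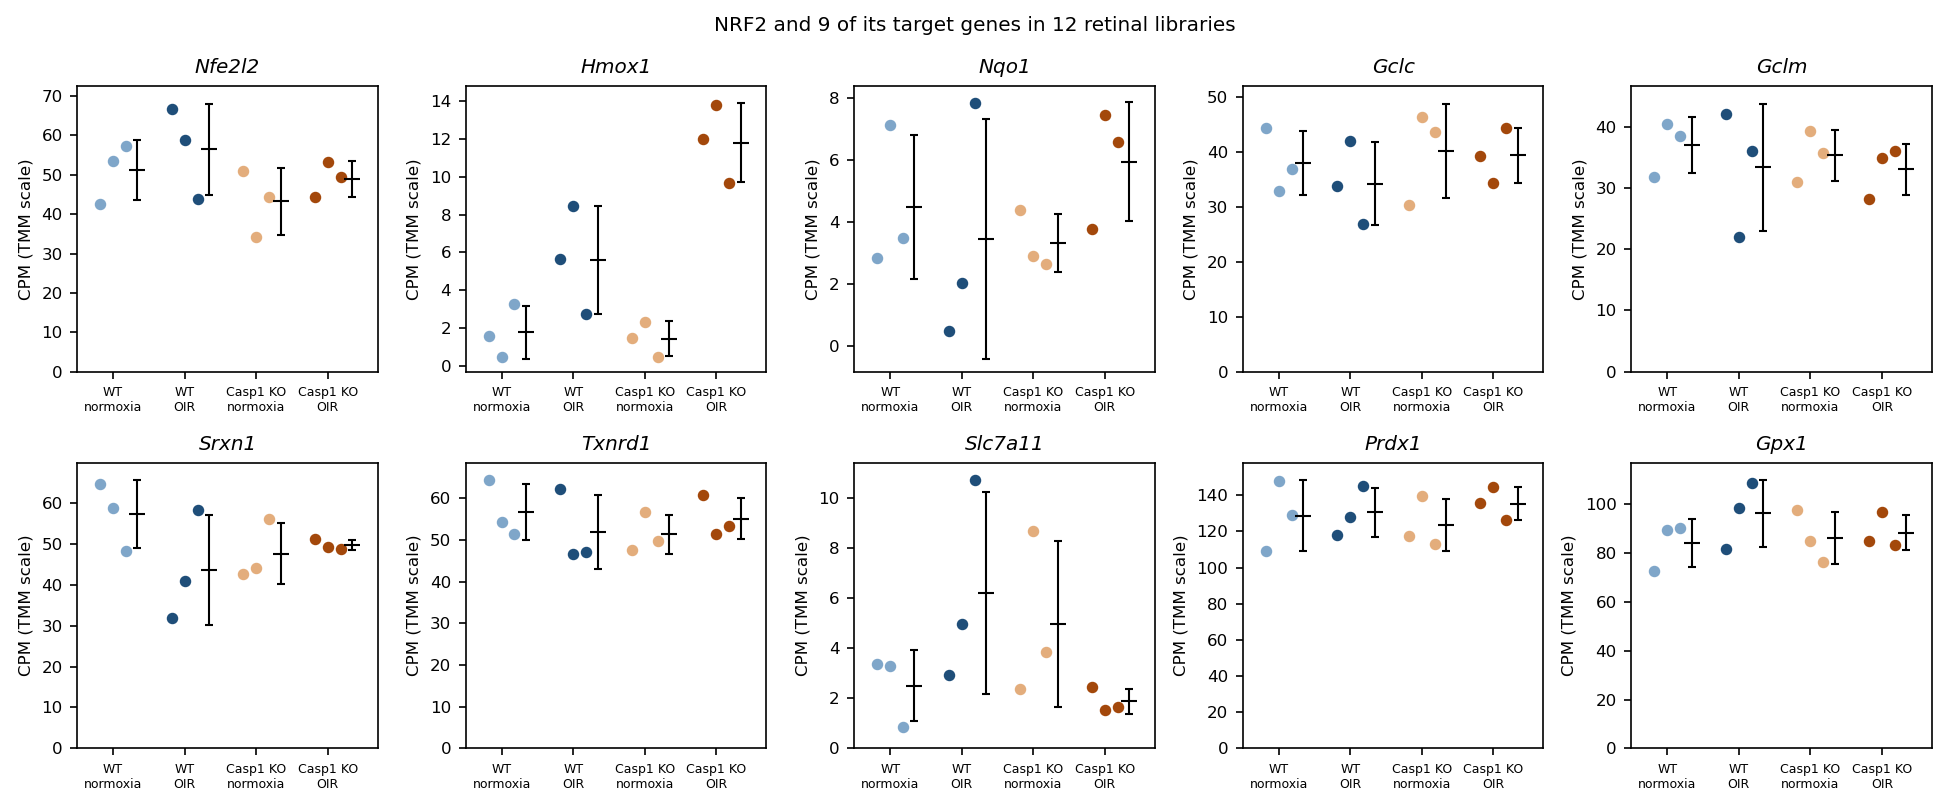
Level of each of the 10 genes in CPM on the TMM scale, one panel a gene, with 1 point for each of the 3 libraries of a group in replicate order and a black bar at the group mean ± SD. The 3 Casp1 KO OIR libraries of Hmox1 sit between 9.67 and 13.8 CPM, above every other library, while the 4 groups of the 7 well counted genes overlap.

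The 10 genes divided by level into 3 that were scarce and 7 that were well counted. Hmox1, Slc7a11 and Nqo1 held 300, 280 and 376 reads over all 12 libraries together, and from 2 to 160 reads in a library. Nfe2l2, Gclc, Gclm, Srxn1, Txnrd1, Prdx1 and Gpx1 held 33782 reads together, from 118 to 3329 in a library, with group means from 33.02 to 135 CPM. The summed level of all 10 genes stayed between 426 and 489 CPM in the 12 libraries.

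Hmox1 encodes heme oxygenase 1, the inducible enzyme that opens heme and releases iron, carbon monoxide and biliverdin. The gene (chromosome 8, 75093621 to 75100589, plus strand, GRCm38) has 5 exons and a 3′ untranslated region of 573 bases, and shares no exonic base with another annotated gene. Hmox1 stood at 1.60, 0.45 and 3.26 CPM in WT normoxia and at 5.63, 8.47 and 2.73 CPM in WT OIR. The lowest WT OIR library, replicate 3, lay under the highest WT normoxia library, so the groups overlapped. Hmox1 stood at 1.46, 2.32 and 0.48 CPM in the libraries labelled Casp1 KO normoxia and at 12.01, 13.8 and 9.67 CPM in those labelled Casp1 KO OIR. Here each OIR library was far above each normoxia library. In reads, the Casp1 KO normoxia values rest on 8, 8 and 2 counts and the Casp1 KO OIR values on 54, 63 and 47.

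In the libraries labelled Casp1 KO, Hmox1 rose 8.44-fold in OIR, with a 95% interval from 4.25-fold to 16.7-fold. The log2 fold change was 3.08 with an SE of 0.50 and an adjusted p of 1.64e-07 in edgeR's quasi-likelihood test. It was the 1 member of 10 called in this comparison, and the 1 whose groups did not overlap. Among all 22387 genes tested there, 4.64% were called, 2.61% as higher and 2.03% as lower, and 17.1% had groups that did not overlap, 8.56% higher and 8.58% lower. Leaving out each library in turn gave log2 fold changes from 2.69 to 3.51. A filter of at least 10 counts in every library removed the gene before the test, since its normoxia libraries held fewer.

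In the libraries labelled WT, the fitted rise of Hmox1 in OIR was 3.44-fold, with a 95% interval from 1.39-fold to 8.53-fold. The log2 fold change of 1.78 (SE 0.67) had an adjusted p of 0.131 and was not called. The outcome turned on single libraries. Without WT OIR replicate 3 the log2 fold change was 2.14 with an adjusted p of 0.0323, and without WT normoxia replicate 3 it was 2.61 with an adjusted p of 0.0391, both by the same edgeR test. Without the deep WT normoxia replicate 2 it was 1.21 with an adjusted p of 0.514, and without WT OIR replicate 2 it was 1.31 with an adjusted p of 0.648. With the spread estimated from all 12 libraries, the log2 fold change was 1.86 with an adjusted p of 0.0297.

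The difference between genotypes in Hmox1 was not established. In OIR all 3 libraries labelled Casp1 KO lay above all 3 labelled WT, at a fitted 2.10-fold with a 95% interval from 1.23-fold to 3.60-fold, and the adjusted p was 0.276 in edgeR's test. In normoxia the libraries labelled Casp1 KO and WT overlapped, with a log2 fold change of -0.26 and an SE of 1.09. The test of whether OIR acted differently in the 2 genotypes gave a log2 difference of 1.21 (SE 0.82, adjusted p 0.696).

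**Figure D2:**
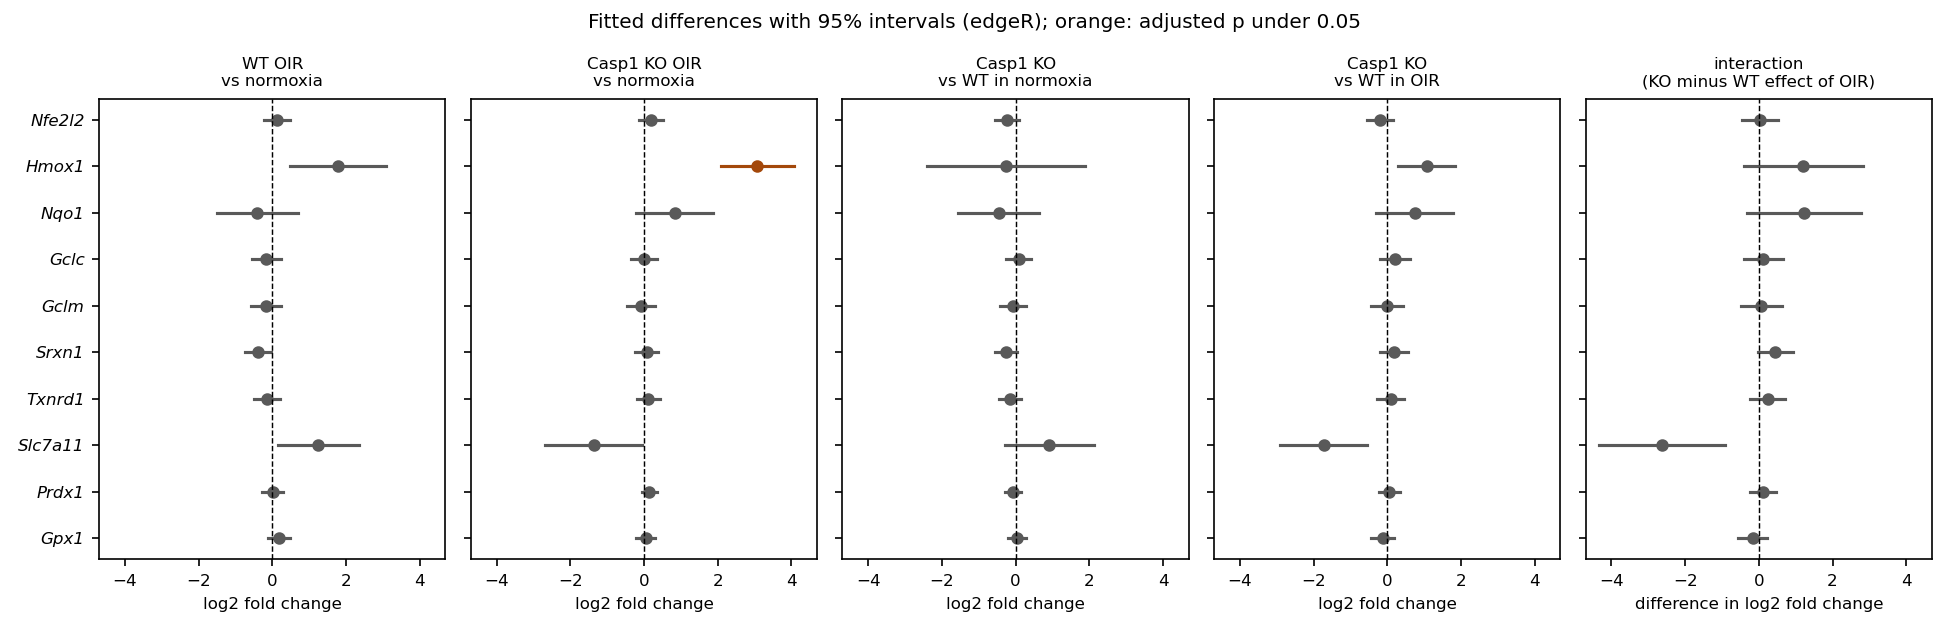
Fitted log2 fold change of each of the 10 genes in 4 two-group comparisons and, at the right, the difference in the OIR effect between genotypes, with lines for 95% intervals from edgeR's quasi-likelihood fits. Hmox1 in Casp1 KO OIR against normoxia, in orange at 3.08, is the point past the adjusted p threshold of 0.05, and the intervals of Hmox1, Nqo1 and Slc7a11 are the wide ones.

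Slc7a11 encodes xCT, the exchanger subunit that imports cystine for glutathione synthesis. The gene occupies chromosome 3, 49892526 to 50443614, minus strand. Slc7a11 stood at 3.37, 3.29 and 0.87 CPM in WT normoxia and at 2.94, 4.97 and 10.7 CPM in WT OIR. It stood at 2.37, 8.71 and 3.86 CPM in Casp1 KO normoxia and at 2.45, 1.53 and 1.65 CPM in Casp1 KO OIR. The groups overlapped in each genotype, the highest WT OIR value came from replicate 3 and the highest Casp1 KO normoxia value from replicate 2.

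The fitted OIR effect on Slc7a11 had opposite signs in the 2 genotypes, a log2 fold change of 1.25 (SE 0.56, adjusted p 0.278) in WT and -1.36 (SE 0.67, adjusted p 0.335) in Casp1 KO, and edgeR's test called neither. Without WT OIR replicate 3 the WT value was 0.61, and without Casp1 KO normoxia replicate 2 the Casp1 KO value was -0.71. Within OIR all 3 libraries labelled Casp1 KO were below all 3 labelled WT, with a log2 fold change of -1.73 (SE 0.60) and an adjusted p of 0.213, which without WT OIR replicate 3 became -1.06 and 0.651. The difference in OIR effect between genotypes was -2.63 on the log2 scale (SE 0.87), the largest of the 10 genes in size, p 0.00255 before adjustment and 0.132 after it, in the edgeR fit of all 12 libraries. Leaving out 1 library moved it from -1.98, without Casp1 KO normoxia replicate 2, to -2.99, without Casp1 KO normoxia replicate 1. No setting brought it past the threshold.

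The partner of xCT in the membrane, the heavy chain 4F2hc encoded by Slc3a2, was called higher with OIR in Casp1 KO, where Slc7a11 was not called. Slc3a2 stood at 112, 133 and 142 CPM in Casp1 KO normoxia and at 202, 212 and 181 CPM in Casp1 KO OIR, and rose with a log2 fold change of 0.64 (SE 0.10, adjusted p 5.79e-08, edgeR). Every OIR library labelled Casp1 KO was above every normoxia library so labelled. In WT the log2 fold change of Slc3a2 was 0.20 (SE 0.14, adjusted p 0.554). It stood at 96.5, 142 and 239 CPM in WT OIR, in the same replicate order as Slc7a11.

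Nqo1 encodes the quinone reductase that is the standard readout of NRF2 in many tissues. The gene occupies chromosome 8, 107388225 to 107403206, minus strand. Nqo1 stood at 2.84, 7.12 and 3.48 CPM in WT normoxia, where the highest library was the deep replicate 2, and at 0.49, 2.03 and 7.81 CPM in WT OIR. It stood at 4.38, 2.90 and 2.66 CPM in Casp1 KO normoxia and at 3.78, 7.45 and 6.58 CPM in Casp1 KO OIR. The WT OIR libraries spanned the range of all others, and their values rest on 2, 11 and 43 reads.

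Nqo1 was not called in any comparison. The log2 fold change with OIR was -0.40 (SE 0.56) in WT and 0.84 (SE 0.53, adjusted p 0.522) in Casp1 KO, with a difference of 1.22 (SE 0.79, adjusted p 0.664, edgeR). In OIR the log2 fold change of Casp1 KO over WT was 0.75 (SE 0.53, adjusted p 0.713). Without WT OIR replicate 3 it became 2.17 with an adjusted p of 0.0413.

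The catalytic and modifier subunits of glutamate cysteine ligase, which makes the first and limiting step to glutathione, kept to a narrow band. Gclc (chromosome 9, 77754535 to 77794485, plus strand) stood at 44.4, 32.8 and 37.0 CPM in WT normoxia, 33.8, 41.98 and 26.9 in WT OIR, 30.4, 46.5 and 43.7 in Casp1 KO normoxia and 39.4, 34.4 and 44.4 in Casp1 KO OIR. Gclm (chromosome 3, 122245557 to 122270732, plus strand) stood at 31.8, 40.5 and 38.5 CPM in WT normoxia, 42.1, 21.9 and 36.0 in WT OIR, 30.99, 39.2 and 35.7 in Casp1 KO normoxia and 28.2, 34.8 and 36.0 in Casp1 KO OIR. The 4 groups of both genes overlapped one another. The log2 fold change with OIR was -0.16 (SE 0.20) for Gclc and -0.17 (SE 0.21) for Gclm in WT, and -0.01 (SE 0.18) and -0.08 (SE 0.19) in Casp1 KO. Gclm shares 296 exonic bases with Gm17494 on the opposite strand and 244 with the pseudogene Gm6061 on its own strand, and whether the authors' counting used strand is not stated.

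Srxn1 encodes sulfiredoxin, which repairs overoxidized peroxiredoxins, and carries the upstream TGAGTCAGC shown above. The gene (chromosome 2, 152105516 to 152111376, plus strand) has 2 exons. Srxn1 stood at 64.6, 59.0 and 48.3 CPM in WT normoxia and at 31.8, 40.9 and 58.3 CPM in WT OIR. WT OIR replicate 3 lay within the normoxia range and the other WT OIR libraries lay below it. The log2 fold change in WT was -0.40 (SE 0.18) with p 0.0279 before adjustment and 0.293 after it in edgeR's test. Without WT OIR replicate 3 it was -0.66 with an adjusted p of 0.0126, a fall. In Casp1 KO, Srxn1 stood at 42.7, 44.2 and 56.3 CPM in normoxia and at 51.1, 49.3 and 48.7 CPM in OIR, overlapping, with a log2 fold change of 0.07 (SE 0.16). The difference between genotypes in the OIR effect was 0.45 (SE 0.24, adjusted p 0.554).

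Txnrd1 encodes cytosolic thioredoxin reductase, a selenoprotein that keeps thioredoxin reduced, and Prdx1 the peroxiredoxin that thioredoxin recycles. Txnrd1 (chromosome 10, 82833951 to 82897712, plus strand) had group means ± SD of 56.7 ± 6.78, 51.9 ± 8.88, 51.3 ± 4.73 and 55.1 ± 4.90 CPM (n = 3 each), taking WT normoxia and WT OIR first, then the same conditions in Casp1 KO. Prdx1 (chromosome 4, 116685544 to 116700822, plus strand) had means of 129 ± 19.5, 130 ± 13.8, 123 ± 14.4 and 135 ± 9.02 CPM in the same order. The highest of the 12 libraries was 1.36 times the lowest for Prdx1, the narrowest of the 7 well counted genes, and 2.03 times for Srxn1, the widest. Near-identical processed copies of Prdx1 could divide its reads, since how multimapped reads were handled is not stated.

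Gpx1 encodes the cytosolic glutathione peroxidase, another selenoprotein (chromosome 9, 108338903 to 108340343, plus strand). Its means ± SD were 84.3 ± 9.91 CPM in WT normoxia, 96.3 ± 13.6 in WT OIR, 86.3 ± 10.7 in Casp1 KO normoxia and 88.4 ± 7.32 in Casp1 KO OIR (n = 3 each). Nfe2l2 (chromosome 2, 75675513 to 75704641, minus strand) stood at 42.6, 53.6 and 57.4 CPM in WT normoxia, 66.6, 58.9 and 44.0 in WT OIR, 51.05, 34.3 and 44.4 in Casp1 KO normoxia and 44.2, 53.2 and 49.4 in Casp1 KO OIR. The message for NRF2 therefore overlapped between all 4 groups. Its log2 fold change with OIR was 0.13 (SE 0.18, adjusted p 0.779) in WT and 0.18 (SE 0.17, adjusted p 0.653) in Casp1 KO, by edgeR.

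For these 7 well counted genes the intervals were narrow enough to bound the change. With OIR in WT their fitted log2 fold changes ran from -0.40 to 0.18, with 95% intervals that together reached from 0.593-fold to 1.40-fold. With OIR in Casp1 KO they ran from -0.08 to 0.18, with intervals from 0.729-fold to 1.42-fold. Casp1 KO against WT gave -0.27 to 0.08 in normoxia, with intervals from 0.675-fold to 1.35-fold, and -0.20 to 0.20 in OIR, with intervals from 0.679-fold to 1.53-fold. None of the 7 was called in these comparisons or in the test of the difference between genotypes. Changes in the amount or location of NRF2 protein were not measured, and in whole retina fewer cells of a type and less RNA per cell cannot be told apart.

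Over the 10 genes, edgeR's test called 0 in WT OIR against normoxia, where 3.88% of 22853 genes were called (1.58% higher, 2.29% lower), and 3 (Hmox1, Slc7a11 and Srxn1) had an unadjusted p under 0.05. It called 0 in Casp1 KO against WT in normoxia, where 1.04% of 22480 genes were called (0.476% higher, 0.56% lower) and 0 of the 10 had an unadjusted p under 0.05. It called 0 in Casp1 KO against WT in OIR, where 0.575% of 22774 genes were called (0.263% higher, 0.312% lower) and 2 (Hmox1 and Slc7a11) had an unadjusted p under 0.05. It called 0 in the test of the difference between genotypes, where 1.13% of 24484 genes were called (0.604% higher, 0.527% lower) and 1 (Slc7a11) had an unadjusted p under 0.05. The percentages are of calls, and the share of all genes under the unadjusted cut was not counted. By p, Srxn1 ranked 2174 among all genes tested in WT OIR against normoxia. In Casp1 KO against WT in OIR, Hmox1 ranked 561 and Slc7a11 440, and in the difference between genotypes Slc7a11 ranked 473. DESeq2 also called 0 of the 10 in these 4 tests, though in Casp1 KO against WT in OIR it gave no adjusted p for Hmox1, Nqo1 and Slc7a11. In Casp1 KO against WT in OIR, 1 of the 10 lay wholly higher (Hmox1) and 1 wholly lower (Slc7a11), against 11.9% of all genes tested in either direction, 5.41% higher and 6.52% lower. In WT OIR against normoxia and in Casp1 KO against WT in normoxia 0 of the 10 had groups that did not overlap, against 16.7% (8.53% higher, 8.16% lower) and 12.4% (5.91% higher, 6.53% lower).

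The median log2 fold change of the 10 genes was -0.07 with OIR in WT, beside 0.04 for all genes tested, and 0.10 in Casp1 KO, beside 0.00. The genes did not share one pattern across the libraries. Over the 45 pairs that 10 genes form, Pearson's r of log2 levels across the 12 libraries had a median of -0.04 and ran from -0.72 to 0.64, positive in 20 pairs and negative in 25. These r values share library depth and group and are given as a description.

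Among 15 genes that regulate NRF2 or share its element, including Keap1, Cul3, Bach1, Bach2 and the small MAF genes, edgeR called 1 as higher in Casp1 KO OIR against normoxia and 0 in each of the other 4 tests. Maff, a small MAF protein and so a possible partner of NRF2 or BACH1, stood at 0.73, 0.87 and 0.48 CPM in Casp1 KO normoxia and at 3.78, 6.79 and 3.09 CPM in Casp1 KO OIR. Those groups did not overlap, and the log2 fold change was 2.69 (SE 0.82, adjusted p 0.0272). In WT, Maff stood at 2.84, 1.47 and 0.87 CPM in normoxia and at 7.35, 4.97 and 0.36 CPM in OIR, with WT OIR replicate 3 the lowest of all 6. The call in Casp1 KO was lost without Casp1 KO OIR replicate 2 and without Casp1 KO normoxia replicate 1 or 3, with adjusted p from 0.0708 to 0.330, and also with the replicate block (0.0519) and with all 12 libraries in one fit (0.0522). Keap1 had a log2 fold change of 0.00 (SE 0.15) in WT and 0.03 (SE 0.12) in Casp1 KO, and Bach1 of 0.26 (SE 0.20) and 0.23 (SE 0.18).

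Among 34 other genes known as NRF2 targets, 33 were in the table. In WT OIR 1 of 30 tested was called higher (Fth1) and 1 lower (Tkt), in Casp1 KO OIR 4 of 31 higher (Tkt, Ftl1, Mgst1 and Fth1) and 0 lower, and in Casp1 KO against WT 0 of 31 in normoxia and 1 of 30 higher in OIR (Tkt). The median log2 fold change of the list was 0.11 in WT OIR and 0.23 in Casp1 KO OIR. Tkt, the transketolase of the pentose phosphate pathway that helps supply NADPH, stood at 262, 264 and 206 CPM in WT normoxia and at 156, 157 and 119 CPM in WT OIR. It stood at 231, 178 and 198 CPM in Casp1 KO normoxia and at 251, 286 and 268 CPM in Casp1 KO OIR. Tkt thus fell in WT, with a log2 fold change of -0.78 (SE 0.13, adjusted p 1.82e-06), and rose in Casp1 KO, with 0.42 (SE 0.09, adjusted p 0.000374). The difference between genotypes was itself called, at 1.17 (SE 0.16, adjusted p 2.46e-09), and Tkt was called in all of these tests under every setting tried.

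Mgst1, a membrane glutathione transferase, stood at 0.55, 1.16 and 2.17 CPM in Casp1 KO normoxia and at 4.002, 6.35 and 7.82 CPM in Casp1 KO OIR, a log2 fold change of 2.25 (SE 0.66, adjusted p 0.0186). Its OIR libraries lay above its normoxia libraries there. The call of Mgst1 was lost on leaving out replicate 1 of Casp1 KO normoxia or replicate 2 or 3 of Casp1 KO OIR, with adjusted p from 0.0741 to 0.159. It was also lost with all 12 libraries in one fit (0.0743).

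Among 16 genes of glutathione synthesis and recycling outside the 10, 1 was called higher in WT OIR (Glo1), 2 higher (Slc3a2 and Glo1) and 1 lower (Glrx3) in Casp1 KO OIR, and 0 in the other tests. Glo1, the glyoxalase that uses glutathione to clear methylglyoxal, rose with OIR in WT by a log2 fold change of 0.72 (SE 0.13, adjusted p 2.3e-06) and in Casp1 KO by 0.30 (SE 0.09, adjusted p 0.0192). The Glo1 call in Casp1 KO was lost on leaving out replicate 2 or 3 of Casp1 KO normoxia or replicate 2 of Casp1 KO OIR, with adjusted p from 0.117 to 0.252. With all 12 libraries in one fit it was lost too (0.175). Glrx3, a monothiol glutaredoxin of iron-sulfur handling, fell in Casp1 KO OIR by 0.54 on the log2 scale (SE 0.13, adjusted p 0.00143), and had an adjusted p of 0.0924 without Casp1 KO normoxia replicate 1. Gss, the second enzyme of glutathione synthesis, and Gsr, which regenerates glutathione, had adjusted p of 0.580 or more in both OIR comparisons.

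Among 14 other peroxiredoxin and thioredoxin genes, 1 was called lower in WT OIR, Prdx6, and 0 in Casp1 KO OIR. Prdx6, a peroxiredoxin that acts on phospholipid peroxides, stood at 109, 109 and 88.7 CPM in WT normoxia and at 62.0, 74.2 and 78.5 CPM in WT OIR, which did not overlap. Prdx6 had a log2 fold change of -0.53 in WT (SE 0.16, adjusted p 0.0239), against 0.27 (SE 0.13, adjusted p 0.302) in Casp1 KO, and the difference of 0.77 (SE 0.20) had an adjusted p of 0.0176. The WT call was lost without WT OIR replicate 1 or 2 or WT normoxia replicate 1 or 2, with adjusted p up to 0.192, and the call of the difference was lost on leaving out any of 6 libraries, WT OIR replicate 1, replicates 1 and 2 of WT normoxia and of Casp1 KO normoxia and Casp1 KO OIR replicate 2, with adjusted p up to 0.137. With filterByExpr (adjusted p 0.0570) and a minimum of 10 counts in each library (0.0511) the WT call was lost as well.

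Among 10 tested genes for other glutathione peroxidases, superoxide dismutases and catalase, 1 was called, Gpx3, the secreted plasma form. Gpx3 stood at 4.38, 2.61 and 4.11 CPM in Casp1 KO normoxia and at 9.78, 13.1 and 11.3 CPM in Casp1 KO OIR, and rose with a log2 fold change of 1.61 (SE 0.42, adjusted p 0.00570). Without Casp1 KO OIR replicate 2 the adjusted p of Gpx3 was 0.0544. In WT its log2 fold change was 0.68 (SE 0.35, adjusted p 0.416). Sod1, Sod2, Cat and Gpx4 had adjusted p of 0.377 or more in both OIR comparisons. Of 13 genes of selenoprotein synthesis and function, Eefsec, the elongation factor for selenocysteine, was the 1 called in Casp1 KO OIR (log2 fold change 1.68, SE 0.45, adjusted p 0.00674) and 0 were called in WT OIR. The Eefsec call was lost with DESeq2 and without Casp1 KO OIR replicate 1 or Casp1 KO normoxia replicate 1 or 2, with adjusted p up to 0.161. Eefsec was also lower in Casp1 KO than in WT in normoxia (-1.63, adjusted p 0.0317), a call lost without replicate 1 or 2 of Casp1 KO normoxia or 2 or 3 of WT normoxia, with adjusted p up to 0.351. With DESeq2 (adjusted p 0.410) and filterByExpr (0.0990) that call was lost too. Selenof, a selenoprotein of the endoplasmic reticulum, was higher in Casp1 KO than in WT in OIR (0.64, adjusted p 0.0130), a call lost without replicate 2 or 3 of Casp1 KO OIR or 1 or 2 of WT OIR, with adjusted p up to 0.604. The Selenof call was also lost with DESeq2, filterByExpr and a minimum of 10 counts in each library (adjusted p from 0.336 to 0.550).

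**Figure D3:**
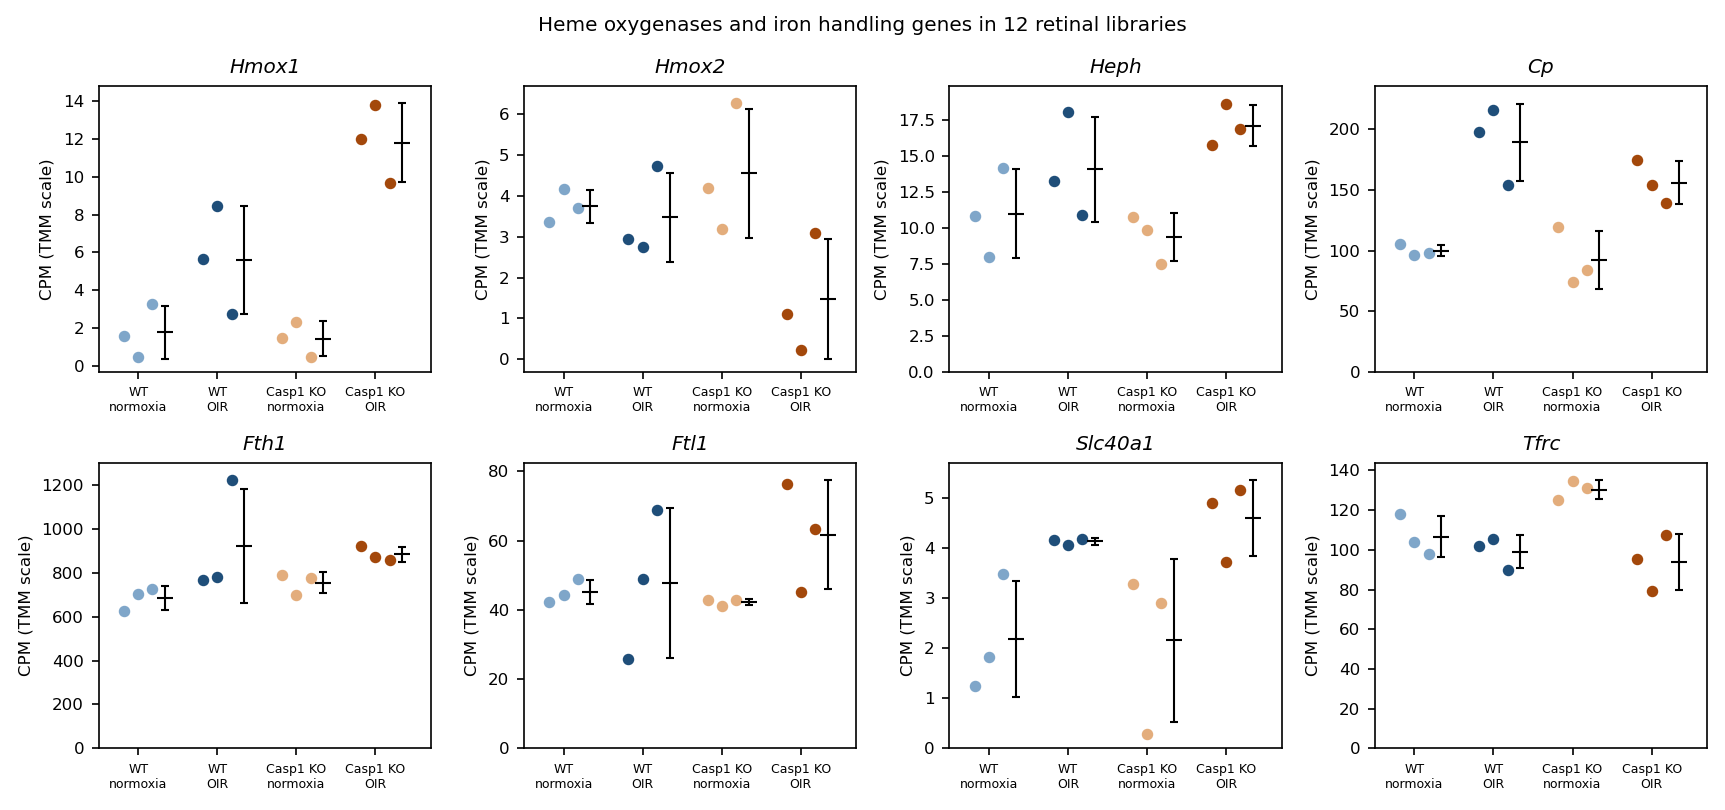
Levels in CPM on the TMM scale of Hmox1, the constitutive heme oxygenase Hmox2 and 6 genes of iron handling, with 1 point for each library and black bars for group mean ± SD (n = 3). Hmox1 and Cp were called higher in OIR in the libraries labelled Casp1 KO, with Hmox1 at 9.67 to 13.8 CPM, and Tfrc lies at 79.3 to 107 CPM there against 125 to 134 CPM in normoxia. Heph also lies higher there but was not called (adjusted p 0.0837, edgeR). It was the most correlated with Hmox1 of 9421 genes compared, so its likeness to Hmox1 here is no separate finding.

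Beside Hmox1, genes that handle the iron it releases were compared. Of 13 tested genes of heme and iron handling, 2 were called higher in WT OIR (Cp and Fth1), and 3 higher (Cp, Ftl1 and Fth1) and 1 lower (Tfrc) in Casp1 KO OIR. None was called between genotypes or in the difference between genotypes. The median log2 fold change of the list was 0.34 in WT and 0.17 in Casp1 KO.

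Cp encodes ceruloplasmin, the ferroxidase that loads iron onto transferrin. Cp stood at 106, 96.3 and 98.3 CPM in WT normoxia and at 198, 216 and 154 CPM in WT OIR. Cp stood at 119, 73.8 and 83.8 CPM in Casp1 KO normoxia and at 175, 154 and 139 CPM in Casp1 KO OIR. The groups did not overlap in either genotype, and Cp rose with log2 fold changes of 0.91 (SE 0.14, adjusted p 4.04e-08) and 0.76 (SE 0.11, adjusted p 2.33e-09), called under every setting tried.

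The ferritin subunits, which store iron, moved less and less surely. Fth1 had log2 fold changes of 0.42 (SE 0.12, adjusted p 0.0122) in WT and 0.24 (SE 0.07, adjusted p 0.0193) in Casp1 KO. Without WT OIR replicate 3, which stood at 1223 CPM where its fellows stood at 766 and 782, the WT log2 fold change of Fth1 was 0.16 with an adjusted p of 0.386, and leaving out WT normoxia replicate 1, 2 or 3 also lost the call, as did leaving out, for the comparison within Casp1 KO, normoxia replicate 2 or 3 or OIR replicate 1, with adjusted p from 0.0503 to 0.278. Ftl1 had a log2 fold change of 0.55 (SE 0.16, adjusted p 0.0157) in Casp1 KO, and its call was lost on leaving out any of 5 of the 6 libraries, the exception being Casp1 KO OIR replicate 2, with adjusted p from 0.0563 to 0.391. The Ftl1 call was also lost with DESeq2 (adjusted p 0.0909) and with all 12 libraries in one fit (0.0644). Tfrc, the transferrin receptor that takes iron up, fell in Casp1 KO OIR by 0.46 on the log2 scale (SE 0.12, adjusted p 0.00346), and without Casp1 KO OIR replicate 2 its adjusted p was 0.0690.

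Hmox2, the constitutive heme oxygenase, stood at 4.19, 3.20 and 6.28 CPM in Casp1 KO normoxia and at 1.11, 0.22 and 3.09 CPM in Casp1 KO OIR. Those groups did not overlap, in the opposite direction to Hmox1, and the log2 fold change of -1.59 (SE 0.71) had an adjusted p of 0.244. In WT the log2 fold change of Hmox2 was -0.12 (SE 0.61).

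Because Slc7a11 also answers to ATF4, the transcription factor of amino acid shortage and the integrated stress response, 16 genes of that response were counted. In WT OIR 0 of 16 were called, and in Casp1 KO OIR 5 were called higher and 0 lower, Ddit4, Slc3a2, Slc7a5, Atf4 and Trib3. The list median log2 fold change was 0.06 in WT and 0.34 in Casp1 KO. Ddit4 was also lower in Casp1 KO than in WT in normoxia (-0.32, SE 0.09, adjusted p 0.0270), a call lost without replicate 1 or 3 of Casp1 KO normoxia or 2 or 3 of WT normoxia, with the replicate block, filterByExpr, a minimum of 10 counts in each library or all 12 libraries in one fit, with adjusted p up to 0.311. Ddit4, an inhibitor of mTORC1 that hypoxia also induces, rose with a log2 fold change of 0.64 (SE 0.09, adjusted p 4.99e-11), Trib3 with 1.27 (SE 0.36, adjusted p 0.0147) and Slc7a5, an amino acid transporter that also pairs with Slc3a2, with 1.25 (SE 0.35, adjusted p 0.0115). The calls of Atf4, Slc7a5 and Trib3 were each lost without replicate 2 of Casp1 KO OIR and without replicate 2 of Casp1 KO normoxia. Normoxia replicate 1 also decided Slc7a5 and Trib3, normoxia replicate 3 and OIR replicate 1 also Atf4, and OIR replicate 3 also Slc7a5, with adjusted p up to 0.208, while the calls of Ddit4 and Slc3a2 with OIR in Casp1 KO were kept without each library. With all 12 libraries in one fit the calls of Atf4 (adjusted p 0.200) and Trib3 (0.0503) were lost, and with DESeq2 that of Trib3 (0.0532). Slc7a11, with the opposite fitted sign in these libraries, was not called.

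**Figure D4:**
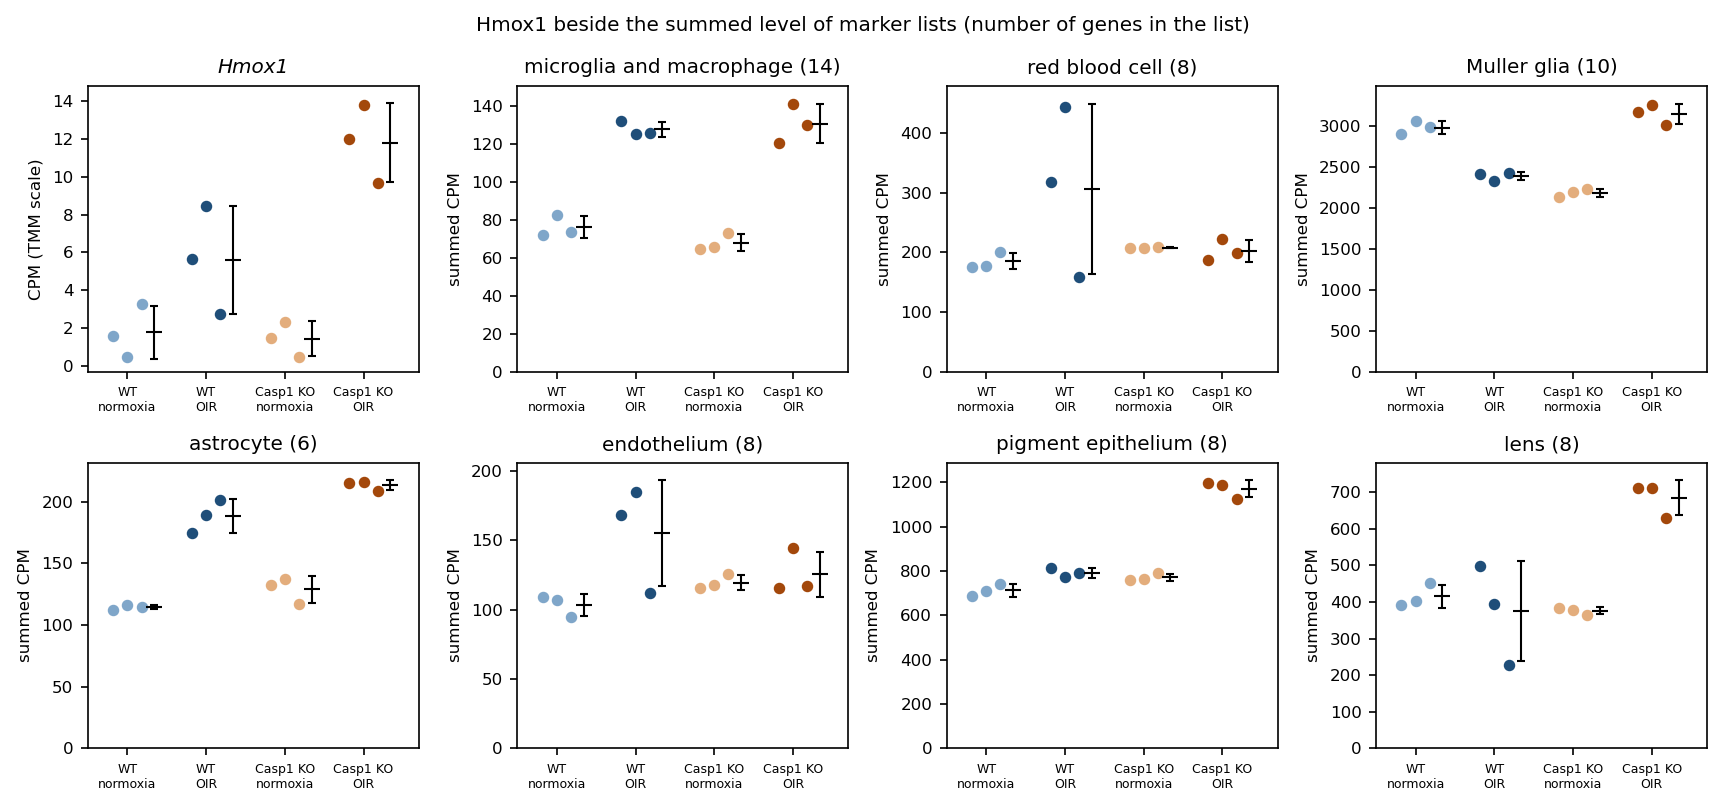
Hmox1 in CPM beside the summed CPM of marker genes of 7 cell types, with the number of genes of each list in its title, 1 point for each library and black bars for group mean ± SD (n = 3). Microglia and astrocyte sums are higher in OIR in both genotypes, though not every gene of these lists rose. Pigment epithelium and lens sums are highest in Casp1 KO OIR, and the red blood cell sum in WT OIR spans 159 to 443 CPM.

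Summed marker levels of several cell types differed between groups, and whether any of them bears on the level of Hmox1 was not tested. The summed level of 14 microglia and macrophage genes ran from 72.1 to 82.6 CPM in WT normoxia, 125 to 132 in WT OIR, 64.7 to 73.2 in Casp1 KO normoxia and 121 to 141 in Casp1 KO OIR, with 3 genes called higher in WT OIR (Mrc1, C1qa and C1qc) and 4 in Casp1 KO OIR (those and C1qb). In WT the call of C1qa was lost on leaving out OIR replicate 2 or normoxia replicate 1 or 2 and that of C1qc on leaving out any library, with adjusted p up to 0.164, and in Casp1 KO that of Mrc1 without OIR replicate 3 and that of C1qc without OIR replicate 2 or 3 or normoxia replicate 1 or 3, with adjusted p up to 0.106. With DESeq2 the calls of Mrc1 were lost in WT (adjusted p 0.385) and in Casp1 KO (0.437), and with filterByExpr that in WT (0.0721). The C1qc call in Casp1 KO was also lost with all 12 libraries in one fit (0.0633). Of this list, Lyz2 was at 0 in 3 libraries, all Casp1 KO normoxia, Mrc1 in 3 normoxia libraries and Aif1 in 1. The list median log2 fold change with OIR was 1.02 in WT and 1.22 in Casp1 KO, and not every gene rose. Unscaled reads of Tmem119 were 9, 121 and 15 in WT normoxia and 3, 23 and 3 in WT OIR. Those of P2ry12 were 14, 21 and 22 in Casp1 KO normoxia and 10, 4 and 31 in Casp1 KO OIR. The 2 OIR groups overlapped in the microglia and macrophage sum. Hmox1 means were 5.61 ± 2.87 CPM in WT OIR and 11.8 ± 2.07 CPM in Casp1 KO OIR (n = 3 each), a difference that was not called.

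Red blood cells, which carry heme, showed another order. Their 8 genes summed to 176 to 200 CPM in WT normoxia, 159 to 443 in WT OIR, 207 to 209 in Casp1 KO normoxia and 186 to 222 in Casp1 KO OIR. In WT OIR, 4 globin genes were called higher (without WT OIR replicate 2 the calls of Hbb-bs, Hba-a1 and Hbb-bt were lost, with adjusted p from 0.0649 to 0.890), and in Casp1 KO OIR 0 of 8 genes were called. The calls of Hbb-bs and Hbb-bt in WT were also lost with DESeq2 and both stricter count filters (adjusted p from 0.124 to 0.752). That of Hbb-bt was lost too with the replicate block and without WT OIR replicate 1 or WT normoxia replicate 1 or 2. Against WT OIR, 3 globin genes were called lower in Casp1 KO OIR (Hbb-bs, Hba-a1 and Hbb-bt). Those calls were lost without WT OIR replicate 2 and under both stricter count filters (adjusted p from 0.269 to 0.872). In WT OIR the library with the most globin reads, replicate 2, also had the highest Hmox1, and the library with the fewest, replicate 3, the lowest. That is an order of 3 libraries, and replicate 3 stood apart from its fellows in general. In Casp1 KO OIR, with the sum at 186 to 222 CPM, Hmox1 stood at 9.67 to 13.8 CPM. A link between globin reads and Hmox1 was not tested. Slc4a1 was at 0 in 7 libraries.

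Müller glia, the radial glia of the retina, had a 10-gene sum of 2897 to 3060 CPM in WT normoxia, 2332 to 2425 in WT OIR, 2129 to 2231 in Casp1 KO normoxia and 3013 to 3258 in Casp1 KO OIR. In WT OIR 3 of the 10 were called lower, and in Casp1 KO OIR 7 were called higher and 1 lower (Abca8a, a call lost with DESeq2 and without normoxia replicate 1 or 3 or OIR replicate 3, with adjusted p up to 0.375). Against WT in normoxia 6 were called lower in Casp1 KO (Glul, Rlbp1, Apoe, Dkk3, Aqp4 and Car14), and against WT in OIR 1 higher (Glul). Of those 6, the call of Car14 was lost in 10 of 13 settings, that of Dkk3 in 2 and that of Aqp4 in 1, with adjusted p up to 0.537. The 6 astrocyte genes summed to 112 to 116 CPM, 174 to 202, 117 to 137 and 209 to 216 in the same order of groups, with Gfap and Gja1 called higher in both genotypes and S100b called lower in Casp1 KO OIR (log2 fold change -0.49, SE 0.15, adjusted p 0.0324). The S100b call was lost without any library but normoxia replicate 1, with DESeq2 and with all 12 libraries in one fit, with adjusted p up to 0.306. The astrocyte list median log2 fold change with OIR was 0.05 in WT and 0.49 in Casp1 KO, so the rise of the sums does not stand for all 6 genes. Endothelial genes summed to 94.6 to 109 CPM, 112 to 185, 115 to 126 and 115 to 144, with Pecam1 and Vwf called higher in WT OIR and 0 of 8 in Casp1 KO OIR, and 0 of 6 pericyte genes were called in either. The call of Pecam1 was lost with DESeq2 (adjusted p 0.322) and filterByExpr (0.0649). The call of Vwf was lost without WT OIR replicate 2 or WT normoxia replicate 1 or 2, with adjusted p up to 0.777, and that of the Müller gene Rlbp1 in Casp1 KO without any library but normoxia replicate 2, with adjusted p up to 0.144. Vwf was also lost with DESeq2 (adjusted p 0.515) and the replicate block (0.130), and Rlbp1 in Casp1 KO with all 12 libraries in one fit (0.224).

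The levels of genes known as markers of the neighbouring pigment epithelium and lens were also summed. The 8 pigment epithelium genes summed to 686 to 743 CPM in WT normoxia, 770 to 812 in WT OIR, 758 to 790 in Casp1 KO normoxia and 1126 to 1195 in Casp1 KO OIR, and 3 of them (Rpe65, Ttr and Rgr) were called higher in Casp1 KO OIR. The 8 lens genes summed to 393 to 451, 228 to 499, 365 to 385 and 630 to 713 CPM in the same order, with 5 called higher in Casp1 KO OIR, 5 called higher there against WT OIR, and Mip at 0 in 10 libraries. Against WT OIR the calls of Bfsp2, Cryaa, Crybb2 and Crygs were lost under either stricter count filter, filterByExpr or a minimum of 10 in each library (adjusted p from 0.0672 to 0.406), that of Bfsp2 also without replicate 2 of Casp1 KO OIR or of WT OIR, and that of Crygs also without those or WT OIR replicate 3, where its log2 fold change was 0.38. With DESeq2 those of Crybb2 (adjusted p 0.0962) and Crygs (0.613) were lost too. The pigment epithelium gene Best1 was at 0 in 2 Casp1 KO OIR libraries and 1 Casp1 KO normoxia library. In WT OIR the pigment epithelium gene Lrat was called lower (log2 fold change -0.84, SE 0.24, adjusted p 0.0198, edgeR). That call was lost without WT OIR replicate 1 or WT normoxia replicate 2 or 3, with adjusted p up to 0.127. The pigment epithelium list median in WT OIR was 0.04, so the higher sum does not stand for all 8 genes. The part of these cell types in the rise of Hmox1 was not tested.

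The genes whose log2 level followed that of Hmox1 most closely across the 12 libraries, among 9421 genes with a mean of at least 10 CPM, were Heph (Pearson's r 0.95), S100a11 (0.90) and Sox9 (0.90). The 12 points share the group structure and each library's composition, so the r values are descriptions. Heph encodes hephaestin, a membrane ferroxidase of the same family as ceruloplasmin, and occupies chromosome X, 96455359 to 96574485, plus strand. It stood at 10.8, 9.88 and 7.49 CPM in Casp1 KO normoxia and at 15.8, 18.6 and 16.9 CPM in Casp1 KO OIR, which did not overlap, with a log2 fold change of 0.87 (SE 0.31, adjusted p 0.0837). In WT, Heph shared with Hmox1 a high WT normoxia replicate 3, at 14.1 CPM, and a low WT OIR replicate 3, at 10.9 CPM.

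S100a11, a calcium-binding S100 protein, stood at 5.33, 7.65 and 5.65 CPM in WT normoxia, 15.2, 24.7 and 9.81 in WT OIR, 2.92, 6.97 and 2.66 in Casp1 KO normoxia and 22.5, 28.0 and 24.3 in Casp1 KO OIR. Its groups did not overlap in either genotype, and it rose with log2 fold changes of 1.37 (SE 0.34, adjusted p 0.00380) in WT and 2.64 (SE 0.33, adjusted p 4.04e-13) in Casp1 KO. Sox9, a transcription factor of Müller glia and astrocytes and 1 of the 10 Müller genes above, rose in Casp1 KO OIR with 1.07 (SE 0.13, adjusted p 2.02e-14) and had 0.40 (SE 0.16, adjusted p 0.153) in WT.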

How the data were processed

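The authors made QuantSeq 3′ forward libraries from TRIzol-extracted retinal RNA, sequenced as single reads of 75 bases. The submitters' processing notes name STAR 2.7.5a, HTSeq 0.6.1, edgeR and mm10. The deposited values are raw read counts per gene symbol, whole numbers without normalization. Annotation, strand setting and multimapped reads are not given in the sources used here. Groups came from the sample labels.

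Counts were fitted in R 4.3.3 with edgeR 4.0.16 (TMM, glmQLFit, glmQLFTest, a minimum of 1 count summed over the fitted libraries, Benjamini-Hochberg over all genes, threshold 0.05), with 6 libraries for each comparison of 2 groups and all 12 for the difference between genotypes. SEs were derived from the fold change and F statistic, with a prior count of 0.125. The script was tested on simulated data. Alternatives were DESeq2 1.42.0 or its size factors, library size alone, filterByExpr, at least 10 counts in every library, a replicate block, all 12 libraries in one fit, and leaving out each library.

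The members and all gene lists were chosen with earlier results of these data known. The text names all 10 members, Casp1, the genes of each list with an adjusted p under 0.05 (at most 6 a list and comparison, the rest as counts), and for each called member the 3 genes most correlated with it in log2(CPM + 1). Others named with values, such as Keap1, Bach1, Hmox2, Gss, Gsr, Sod1, Sod2, Cat and Gpx4, were chosen after their values were seen. Positions are from GENCODE vM21 (GRCm38). Promoters are from RefSeq.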

Additional observations from a re-analysis of the deposited data

Results flagged for a closer look

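The test of the difference in OIR effect between genotypes (Casp1 KO minus WT, log2, edgeR fit of all 12 libraries) called these genes outside the 10 members. For 2 enzymes of redox metabolism the difference was 1.17 (Tkt, SE 0.16, adjusted p 2.46e-09) and 0.77 (Prdx6, SE 0.20, adjusted p 0.0176), and for Ddit4 it was 0.60 (SE 0.15, adjusted p 0.0168). The Ddit4 call was lost under both stricter count filters (filterByExpr, and a minimum of 10 in each library) and without Casp1 KO OIR replicate 2, Casp1 KO normoxia replicate 1 or 3, WT OIR replicate 1 or WT normoxia replicate 2 (adjusted p up to 0.133). The Prdx6 call was lost without any of 6 libraries (adjusted p up to 0.137).

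Among Müller glia genes the difference was 1.09 for Glul, 1.06 for Car14, 0.99 for Rlbp1, 0.78 for Apoe and 0.76 for Dkk3, all higher in Casp1 KO, with adjusted p of 0.000977 or less. Among pigment epithelium genes it was 0.86 for Rpe65 and 1.22 for Lrat, and among lens genes 1.28 for Cryba1, 1.10 for Crybb2, 0.96 for Crygs and 0.84 for Cryaa, with adjusted p of 0.0155 or less. The calls of Cryaa, Crybb2 and Crygs were lost under both of these filters, and those of Crybb2 and Crygs with DESeq2 (adjusted p 0.220 and 0.613). Crybb2 was also lost without replicate 2 or 3 of Casp1 KO OIR or of WT OIR or WT normoxia replicate 1 (adjusted p up to 0.202), Crygs without Casp1 KO normoxia replicate 3 or WT OIR replicate 3, where its value was 0.57, and Lrat without Casp1 KO OIR replicate 2 or Casp1 KO normoxia replicate 1 or 2 (adjusted p up to 0.0879). Among globin genes the difference was -0.81 for Hbb-bs (adjusted p 0.00395) and -1.22 for Hbb-bt (adjusted p 0.0103), and without WT OIR replicate 2 those adjusted p became 0.773 and 0.649. Without Casp1 KO OIR replicate 3 that of Hbb-bt was 0.0550. Both globin calls were also lost with DESeq2 and under both stricter count filters (adjusted p from 0.269 to 0.696). For Emcn, an endothelial gene of few reads, the difference was -4.94 (SE 1.41, adjusted p 0.0436). Its call was lost on leaving out any of 8 libraries, with filterByExpr (adjusted p 0.0858) and with the replicate block (0.134).

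Gpx8, a glutathione peroxidase of the endoplasmic reticulum, was noted because all its WT OIR libraries lay above WT normoxia and all its Casp1 KO OIR libraries below Casp1 KO normoxia. Its difference of -1.08 (SE 0.38) had an adjusted p of 0.187 and was not called.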

How the results depend on the processing

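Over the 50 values of the 10 members (10 genes in 5 tests), the alternatives gave 687 values. Of these 645 kept direction and side of the threshold, 5 moved past it, 0 lost a call and 37 changed sign. Leaving out each library gave 0 to 2 members called in WT OIR against normoxia (Hmox1 without WT normoxia replicate 3, Hmox1 and Srxn1 without WT OIR replicate 3) and 0 to 1 in Casp1 KO against WT in OIR (Nqo1 without WT OIR replicate 3). With all 12 libraries in one fit 1 member, Hmox1, was called in WT OIR. With at least 10 counts in every library 0 were called in Casp1 KO OIR, since Hmox1 was not tested. Under every setting that tested it Hmox1 was called there.

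The labels of all groups share replicate numbers, but same-numbered libraries did not deviate together. With the replicate block no call of a member changed, the Hmox1 value in Casp1 KO was 3.13, and 2 values changed sign, Gclc in Casp1 KO OIR to 0.0023 and Gclm in Casp1 KO against WT in OIR to 0.027. DESeq2 gave no adjusted p for Hmox1, Nqo1 and Slc7a11 in that comparison.

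Values that changed sign on leaving out 1 library, none of them called, had these ranges (log2). In WT OIR they were Prdx1 -0.10 to 0.13, Nqo1 -1.82 to 0.15, Nfe2l2 -0.0084 to 0.28 and Gclm -0.37 to 0.066. In Casp1 KO OIR they were Srxn1 -0.0090 to 0.21, Gclc -0.18 to 0.10, Gpx1 -0.041 to 0.14 and Gclm -0.17 to 0.013. In Casp1 KO against WT in normoxia they were Gpx1 -0.058 to 0.12, Nqo1 -0.73 to 0.089, Gclc -0.034 to 0.26, Gclm -0.17 to 0.021, Prdx1 -0.17 to 0.057 and Hmox1 -0.78 to 0.52. In Casp1 KO against WT in OIR they were Gclm -0.24 to 0.19 and Prdx1 -0.013 to 0.15. In the difference between genotypes they were Nfe2l2 -0.12 to 0.17, Gclm -0.16 to 0.27 and Gclc -0.048 to 0.30. For these the cause was not tested.

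The count of all genes called moved over 1.5 times as follows. In WT OIR against normoxia 886 became 586 with filterByExpr and 545 to 581 without WT normoxia replicate 1, 2 or 3. In Casp1 KO OIR 1038 became 642 with all 12 libraries in one fit. In Casp1 KO against WT in normoxia 233 became 453 with DESeq2, 109 with all 12 libraries, and 143 and 128 without Casp1 KO normoxia replicates 2 and 3. In OIR 131 became 82 with DESeq2, 16 with filterByExpr, 17 with at least 10 counts, 255 with all 12 libraries, 815 and 47 without WT OIR replicates 3 and 2, and 59 to 72 without each Casp1 KO OIR library. In the difference between genotypes 277 became 139 with filterByExpr, 152 with at least 10 counts, 597 and 174 without WT OIR replicates 3 and 2, and 184 without Casp1 KO normoxia replicate 1. Depth limits Hmox1, Nqo1 and Slc7a11, whose libraries held as few as 2 reads.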
